A study of Mus musculus with 12 samples.

Results

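The CDK inhibitors *Cdkn1a*, *Cdkn1b*, *Cdkn2a*, *Cdkn2b* and *Cdkn2c*, the p53 genes *Trp53*, *Mdm2* and *Ccng1*, and the D-type cyclin genes *Ccnd1* and *Ccnd2* were followed in whole mouse kidney. These 10 genes were chosen by name from the 54532 genes of the count table, and all 10 passed the filter on low counts that left 24642 genes for testing.

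RNA-seq was done on kidneys of 12 C57BL/6 mice (C57BL/6 J in the study's methods), 18 days old, in 4 groups of 3. All 12 mice carried 1 RC allele of *Pkd1*, a hypomorphic missense allele. The noncystic mice (labelled Pkd1_RC, and written in the study's text as *Pkd1* RC/F without Cre and elsewhere as *Pkd1* RC/+) were *Pkd2* +/+ (mice 19 to 21) or *Pkd2* Δ17/Δ17 (labelled Pkd1_RC_Pkd2_UTR_DD, mice 22 to 24). The cystic *Pkd1* RC/- mice were *Pkd2* +/+ (labelled Pkd1F_RC, mice 25 to 27) or *Pkd2* Δ17/Δ17 (labelled Pkd1F_RC_Pkd2_UTR_DD, mice 28 to 30). In Δ17 the motif for the microRNA miR-17 is deleted from the *Pkd2* 3′-UTR. The second *Pkd1* allele of the cystic mice was floxed and deleted by KspCre, which the *Cdh16* promoter drives in kidney tubule epithelium, so that cells without this promoter's activity kept it. The cystic state and the presence of Cre cannot be told apart in these groups. In a whole kidney, fewer cells of a type and less RNA per cell cannot be told apart either.

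The D-type cyclins pair with CDK4 and CDK6 and start the phosphorylation of Rb, which releases E2F factors and lets a cell enter S phase. The INK4 inhibitors (p16 from *Cdkn2a*, p15 from *Cdkn2b*, p18 from *Cdkn2c*) bind CDK4 and CDK6 themselves, whereas the CIP/KIP inhibitors (p21 from *Cdkn1a*, p27 from *Cdkn1b*) bind cyclin-CDK complexes more broadly. p53, the product of *Trp53*, is held low by the ubiquitin ligase MDM2, and *Cdkn1a*, *Mdm2* and *Ccng1* are classic genes transcribed under p53. p53 is regulated largely at the level of the protein, which these data do not measure.

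Library totals ran from 18800307 to 24453033 reads. *Pkd2*, the edited gene, stood at 194 to 219 and 271 to 286 CPM in noncystic +/+ and Δ17/Δ17 kidneys, and at 213 to 233 and 307 to 337 CPM in the cystic groups, where CPM is each read count divided by the library size that the TMM factors give. Kidney markers were present in every library, with summed proximal tubule markers at 1935 CPM or more. Some kidneys stood apart. Cystic +/+ mouse 25 had the highest summed collecting duct markers, 2444 CPM against 794 to 1595 in the other mice, and was the lowest of its group for 7 of the 10 genes. Adrenal markers reached 35.3 CPM in cystic +/+ mouse 27 and 240.1 CPM in cystic Δ17/Δ17 mouse 30, against 3.69 to 7.09 in the other 10 mice. By *Xist*, the groups were unequal in sex, with 1, 2, 2 and 1 high-*Xist* mice of 3 in the order of the groups given above. Calls of the 10 genes that changed without 1 of these mice are given beside the result, and changes of sign at the end.

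In the mouse build GRCm38, the INK4 genes lay on the reverse strand of chromosome 4. *Cdkn2a* (ENSMUSG00000044303, chr4:89274471-89294653) and *Cdkn2b* (ENSMUSG00000073802, chr4:89306299-89311039) were 11.6 kb apart, and *Cdkn2c* (ENSMUSG00000028551) was at chr4:109660876-109667189. *Cdkn2a* yields both p16 and, from another first exon, p19Arf, which restrains MDM2, and its read count cannot separate them. *Cdkn1a* (ENSMUSG00000023067) was at chr17:29090976-29100727 and *Cdkn1b* (ENSMUSG00000003031) at chr6:134920401-134925513, both on the forward strand. *Trp53* (ENSMUSG00000059552, forward strand) was at chr11:69580359-69591873, *Ccng1* (ENSMUSG00000020326, reverse strand) at chr11:40748552-40755311 and *Mdm2* (ENSMUSG00000020184, reverse strand) at chr10:117688875-117710758. The cyclins *Ccnd1* (ENSMUSG00000070348, chr7:144929931-144939925) and *Ccnd2* (ENSMUSG00000000184, chr6:127125162-127152193) were on the reverse strand. *Ccnd1* shared 1100 exonic bases with *LTO1* on the opposite strand. The counting did not separate strands, since single-exon genes inside introns of highly expressed genes had a median of 12.3 reads per kb on the strand opposite to the host and 12.2 on its own strand. Reads of the shared stretch could therefore not be assigned to *Ccnd1* or *LTO1* by strand. Whether such reads entered either gene's count or were left out was not tested. *Cdkn1a* and *Ccnd2* overlapped only genes that had 2 to 121 reads in all 12 mice.

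Since miR-17 is the microRNA whose *Pkd2* site was deleted, its family and its matches in the 10 genes are shown. Mature sequences are from RefSeq for GRCm38.p6, with the seed (bases 2 to 8) in capitals, which all 6 family members listed share (miR-17, miR-20a, miR-20b, miR-93, miR-106a and miR-106b).
miR-17-5p: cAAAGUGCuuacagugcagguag
miR-20a-5p: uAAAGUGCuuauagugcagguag
miR-106b-5p: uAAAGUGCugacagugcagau
The complement of the seed occurred once in the longest annotated 3′-UTR of *Cdkn1a*, *Ccng1*, *Ccnd1* and *Ccnd2*, which is 4 of the 10 genes, and in 11.8% of the 21009 3′-UTRs searched. The matches are in capitals on the strand of the gene.
Cdkn1a, exon 3, chr17:29099818-29099846: agacctgaataGCACTTTggaaaaatgag
Ccng1, exon 6, chr11:40749390-40749418: atttcatgaatGCACTTTtaaggtattaa
Ccnd1, exon 5, chr7:144931665-144931693: tccatttcaaaGCACTTTtggtcagctag
Ccnd2, exon 5, chr6:127129329-127129357: ccattagaaaaGCACTTTgaaaattttgg
None of these matches was followed by an A. They began 436, 1461, 925 and 989 bases after the stop codon, in the order above. The 6-base match to seed bases 2 to 7 was also found in *Cdkn1b* and *Cdkn2b*, making 6 of 10 genes against 36.9% of 3′-UTRs. A match is a string of letters and not a shown site.

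**Figure D1:**
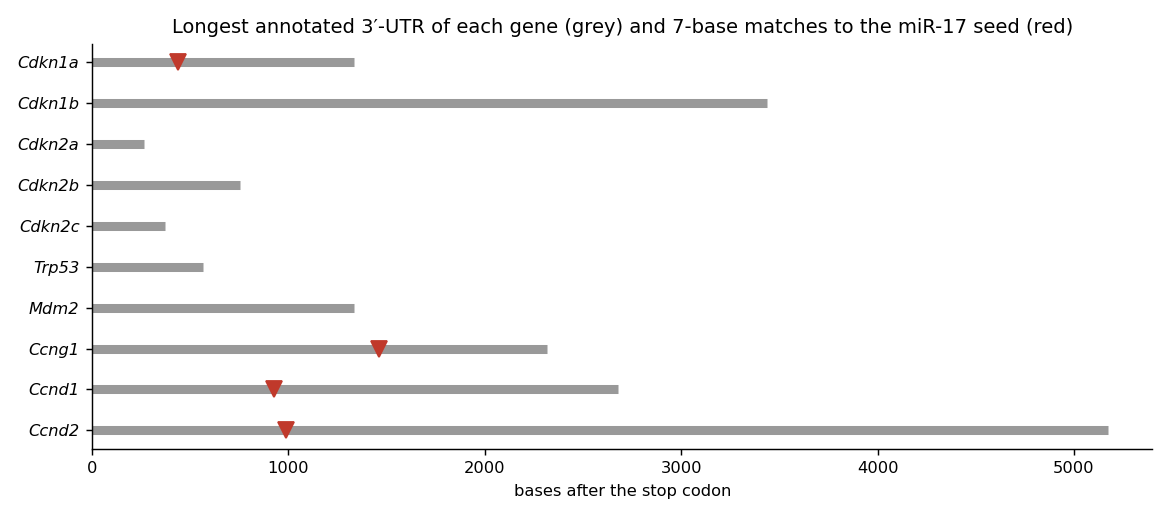
Longest annotated 3′-UTR of the 10 genes as grey bars, in bases after the stop codon, with the 7-base matches to the miR-17 seed as red triangles. The 4 matches lie in *Cdkn1a*, *Ccng1*, *Ccnd1* and *Ccnd2*, between 436 and 1461 bases after the stop codon, and the 3′-UTRs run from 264 bases (*Cdkn2a*) to 5173 bases (*Ccnd2*).

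Since *Trp53* and genes transcribed under p53 are among the 10, the p53 half-site consensus was searched in the RefSeq promoters (250 bases before to 50 after the start, GRCm38.p6), of which 11 were listed for 8 of the 10 genes and none for *Ccnd1* and *Ccnd2*. The half-site reads alike on both strands. It was found in promoters of *Cdkn1a*, *Ccng1*, *Mdm2* and *Trp53*, and in 8.36% of 32817 promoters. The matches are in capitals.
Cdkn1a, starting 73 bases before the start, chr17:29090896-29090925: tcctgggtggGGACTAGCTTtctggccttc
Cdkn1a, starting 51 bases before the start, chr17:29090918-29090947: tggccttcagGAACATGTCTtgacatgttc
Ccng1, starting 185 bases before the start, chr11:40755452-40755481: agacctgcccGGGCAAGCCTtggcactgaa
Mdm2, starting 186 bases before the start, chr10:117710925-117710954: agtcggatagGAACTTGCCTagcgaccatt
Trp53, starting 75 bases before the start, chr11:69580274-69580303: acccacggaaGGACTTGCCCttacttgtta
Both *Cdkn1a* matches lay in 1 of the 2 promoters listed for this gene. That promoter was the one among these with a pair of half-sites at most 13 bases apart, as had 0.0731% of all promoters. The E2F strings TTTCCCGC, TTTGGCGC, TTTCGCGC and TTTGCCGC, on either strand, were found in 1 promoter of *Cdkn2a* (99 bases before the start) and in 2.26% of all promoters.

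Per kb of exon, *Ccnd1* was the most abundant of the 10 genes and *Cdkn2a* the least in all 4 groups. In noncystic +/+ kidneys, *Ccnd1* stood at 32.4 ± 5.31 CPM per kb (SD, n = 3) and *Ccng1* at 28.6 ± 0.937, and their ranges overlapped. *Cdkn1b* (22.2 ± 0.324) and *Cdkn1a* (15.97 ± 1.66) followed, each apart from its neighbours. *Trp53* (11.1 ± 0.104), *Mdm2* (10.4 ± 0.937) and *Cdkn2c* (9.28 ± 1.90) formed a run whose neighbouring ranges overlapped, and *Cdkn2c* also overlapped *Cdkn2b* (5.22 ± 2.76), which in turn overlapped *Ccnd2* (4.49 ± 0.832). *Cdkn2a* was far lower, at 0.733 ± 0.181 CPM per kb. In cystic +/+ kidneys *Trp53* (19.98 ± 1.06) and *Cdkn2c* (17.8 ± 0.166) stood above *Mdm2* (11.1 ± 0.786), with no overlap between their ranges.

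**Figure D2:**
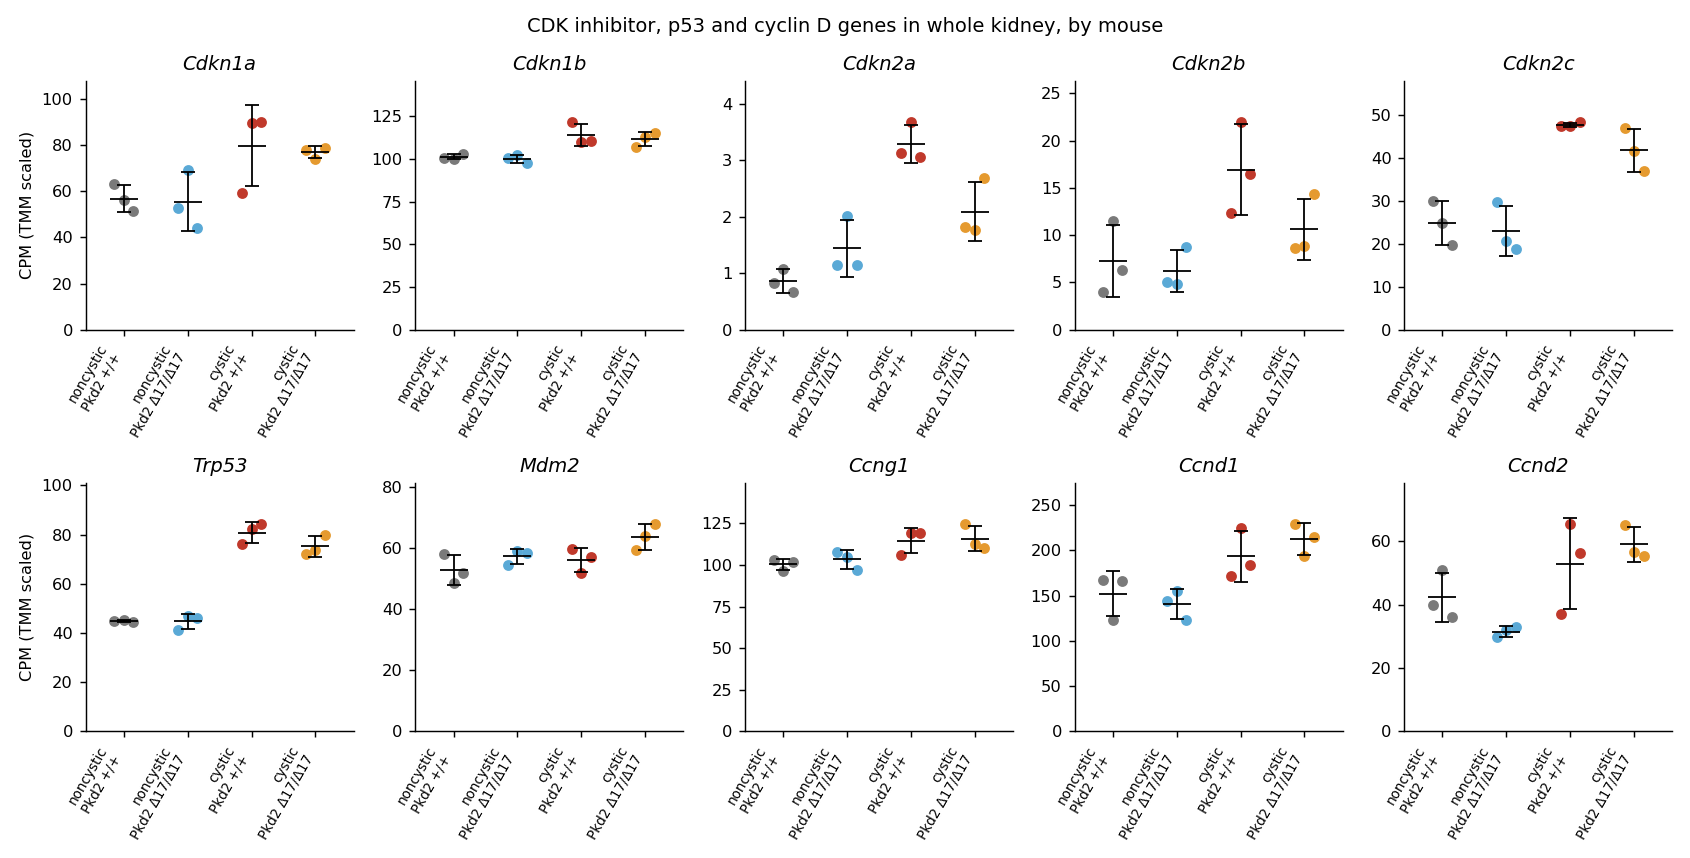
CPM of each of the 10 genes (y axis, from 0, TMM scaled) in the 4 groups, with 1 point per mouse in the order of the mouse numbers and the mean ± SD (n = 3) in black. The cystic +/+ points of *Cdkn2a*, *Cdkn2b*, *Cdkn2c* and *Trp53* all lie above the noncystic +/+ points, whereas those of *Mdm2* overlap.

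The first comparison asked how these genes differed between cystic and noncystic kidneys with unedited *Pkd2*. A gene is called where its adjusted p is under 0.05, and every adjusted p below comes from the quasi-likelihood test of edgeR, adjusted by Benjamini-Hochberg over 24642 genes. In cystic kidneys *Cdkn2a*, *Cdkn2b*, *Cdkn2c*, *Trp53*, *Cdkn1a* and *Ccnd1* were higher, which is 6 of the 10 genes, and none was lower, while 16.9% of all genes were called higher and 14.2% lower. The median log2 fold change of the 10 genes was 0.42, and that of all genes 0.02. The groups did not overlap, with cystic higher, for 7 of the 10 genes and for 22% of all genes. *Cdkn1b*, *Ccng1*, *Ccnd2* and *Mdm2* did not pass.

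The INK4 genes had the largest differences. *Cdkn2a* was at 0.831, 1.08 and 0.661 CPM in the 3 noncystic +/+ kidneys and at 3.14, 3.67 and 3.06 CPM in the cystic +/+ kidneys, a 3.83-fold difference (log2 1.94, SE 0.30, adjusted p = 9.98e-05). Every cystic kidney stood above every noncystic one, although the gene rested on only 13 to 81 reads per library over the 12 mice. *Cdkn2b* was at 3.95, 11.5 and 6.36 CPM in noncystic and 12.4, 21.9 and 16.5 CPM in cystic kidneys (2.34-fold, log2 1.23, SE 0.33, adjusted p = 0.00803). Its groups came close to each other without overlap, at 11.5 and 12.4 CPM. *Cdkn2c* was at 30.1, 24.9 and 19.8 CPM in noncystic and at 47.5, 47.6 and 48.4 CPM in cystic kidneys (1.92-fold, log2 0.94, SE 0.16, adjusted p = 0.00019). The cystic kidneys lay within 1 CPM of each other for this gene.

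*Cdkn1a* and *Cdkn1b*, the CIP/KIP genes among the 10, differed by less than *Cdkn2a*, *Cdkn2b* and *Cdkn2c*. *Cdkn1a* was at 63.0, 56.1 and 51.2 CPM in noncystic and at 59.4, 89.7 and 89.7 CPM in cystic kidneys (1.40-fold, log2 0.49, SE 0.16, adjusted p = 0.0240), and the groups overlapped through cystic mouse 25. The call was lost without mouse 20, 21, 26 or 27, where the log2 fold change was 0.46, 0.40, 0.39 and 0.39. *Cdkn1b* was at 100.03 to 103 CPM in noncystic and 110.1 to 121 CPM in cystic kidneys, apart in every mouse but only 1.13-fold different (adjusted p = 0.0625). It passed in edgeR with the filterByExpr filter (log2 0.16, adjusted p = 0.0462). *Cdkn1c*, the third gene of this family and not one of the 10, was lower in cystic kidneys, at 129, 108 and 89.7 CPM in noncystic and 23.5, 44.3 and 51.5 CPM in cystic +/+ kidneys (log2 -1.46, SE 0.27, adjusted p = 0.000403). p57, its product, is known as an imprinted growth inhibitor and is abundant in podocytes, whose 4 markers were also all lower (summed 460 to 551 CPM in noncystic and 176 to 239 CPM in cystic +/+ kidneys). The part of podocyte RNA in the *Cdkn1c* value was not tested.

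*Trp53* itself had the smallest adjusted p of the 10. It was at 45.0, 45.5 and 44.6 CPM in noncystic and 76.0, 82.2 and 84.2 CPM in cystic +/+ kidneys (1.80-fold, log2 0.84, SE 0.08, adjusted p = 4.35e-07), and the gap between the groups was far wider than the spread within either. Its targets among the 10 did not follow by a like size. *Cdkn1a*, given above, was called higher by less (log2 0.49, 95% interval 0.16 to 0.82), and *Mdm2* and *Ccng1* were not called. *Mdm2* was at 58.1, 48.6 and 52.0 CPM in noncystic and 59.8, 51.9 and 57.1 CPM in cystic kidneys, with overlap (log2 0.09, 95% interval -0.09 to 0.27, adjusted p = 0.490). *Ccng1* was at 103, 96.6 and 102 CPM in noncystic and 105.9, 119 and 119 CPM in cystic kidneys (log2 0.19, 95% interval 0.03 to 0.35, adjusted p = 0.0654). Its groups did not overlap, and without cystic mouse 25 it passed (log2 0.25, adjusted p = 0.0310).

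Of the D cyclins, *Ccnd1* was at 167, 124 and 166 CPM in noncystic and at 171, 225 and 184 CPM in cystic +/+ kidneys (1.27-fold, log2 0.34, SE 0.13, adjusted p = 0.0490). The cystic kidneys were all above the noncystic ones by a small margin. This call was at the threshold and was lost without any one of mice 20 (log2 0.19), 21 (0.40), 22 (0.32), 23 (0.32), 26 (0.22), 27 (0.38), 28 (0.34), 29 (0.34) or 30 (0.34), and with 5 of the other settings tried. *Ccnd2* was at 39.8, 51.0 and 36.0 CPM in noncystic and 37.1, 65.4 and 56.4 CPM in cystic kidneys (log2 0.32, SE 0.16, adjusted p = 0.154). Cystic mouse 25 lay within the noncystic range, and without it *Ccnd2* passed (log2 0.53, adjusted p = 0.00356).

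The count depended on the scaling. With library totals in place of TMM factors, all 10 genes were called higher, but 8719 rather than 7665 of all 24642 genes were then called. The median gene then stood at 0.18 on the log2 scale instead of 0.02, and 71.7% rather than 54.4% of all called genes were higher. On that scale *Mdm2* stood at 0.25, *Cdkn1b* at 0.33 and *Ccng1* at 0.35, nearest to the median gene of the 10. *Cdkn2a*, *Cdkn2b*, *Cdkn2c* and *Trp53* were called higher under each of the 21 other settings, which include leaving out each mouse.

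**Figure D3:**
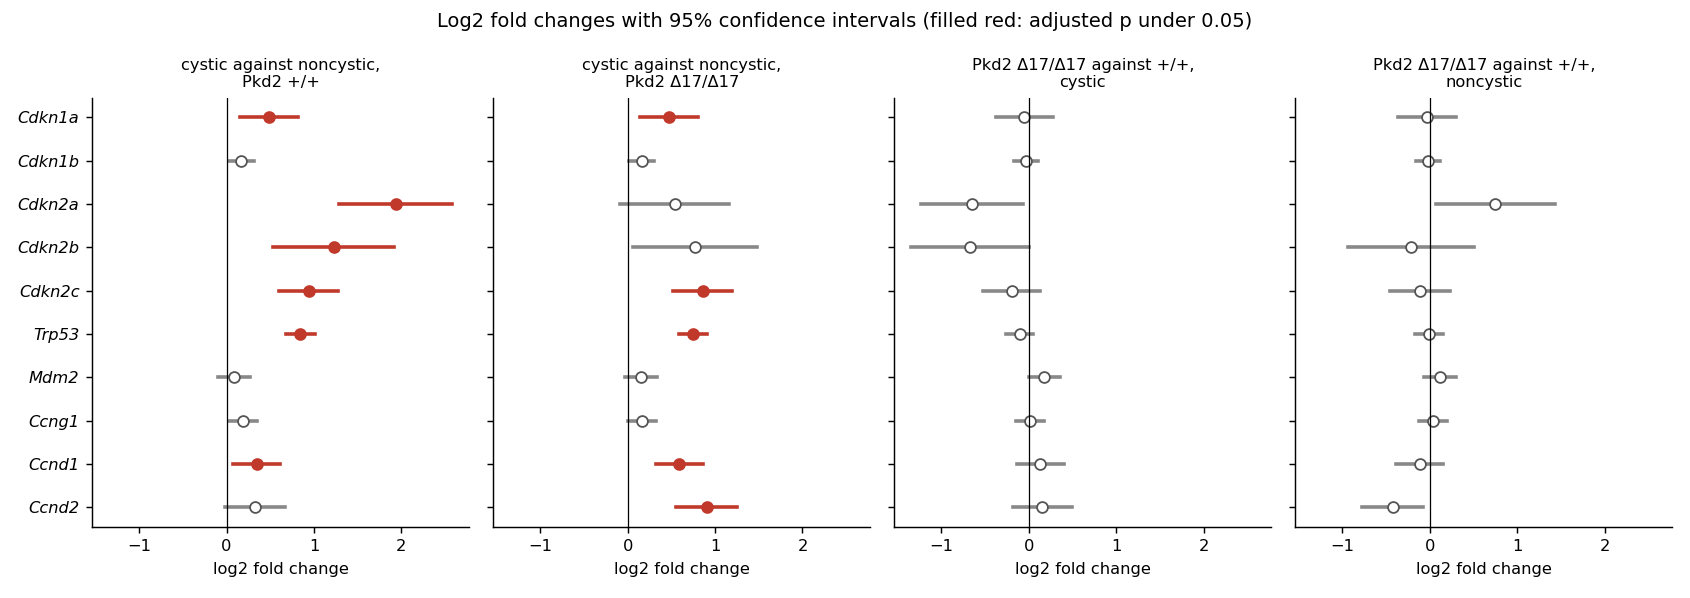
Log2 fold changes (points) with 95% confidence intervals (lines) of the 10 genes in the 4 comparisons, from edgeR with 3 mice a group. Red points have an adjusted p under 0.05. Red points are 6, 5, 0 and 0 in the panels from left to right, all to the right of 0.

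The same comparison in kidneys with the *Pkd2* motif deleted used 6 other mice, though the fit shared one estimate of spread. Here *Trp53*, *Ccnd2*, *Cdkn2c*, *Ccnd1* and *Cdkn1a* were called higher in cystic kidneys and none lower, 5 of 10 beside 12.8% of all genes called higher. The groups were apart, cystic higher, for 8 of the 10 genes and 20.2% of all. 4 genes (*Cdkn1a*, *Cdkn2c*, *Trp53* and *Ccnd1*) were called with either *Pkd2* genotype.

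*Trp53* was at 41.3, 47.0 and 46.1 CPM in noncystic and 72.0, 73.7 and 79.9 CPM in cystic Δ17/Δ17 kidneys (1.68-fold, log2 0.75, SE 0.08, adjusted p = 3.92e-06). *Cdkn2c* was at 29.8, 20.7 and 18.8 against 47.0, 41.6 and 37.0 CPM (log2 0.86, SE 0.16, adjusted p = 0.000730). Both were apart in every mouse. *Ccnd2* was at 29.7, 32.0 and 32.8 CPM in noncystic and 65.2, 56.5 and 55.2 CPM in cystic kidneys (1.87-fold, log2 0.90, SE 0.16, adjusted p = 0.000622). *Ccnd1* was at 145, 156 and 123 against 229, 194 and 214 CPM (log2 0.59, SE 0.13, adjusted p = 0.00242). Both D cyclins were thus apart between these groups, and *Ccnd1* kept its call without each mouse in turn. *Cdkn1a* was at 52.7, 69.3 and 44.2 against 77.9, 74.0 and 78.9 CPM (log2 0.47, SE 0.16, adjusted p = 0.0363), and lost its call without mouse 22 (log2 0.43), 24 (0.34), 28 (0.46), 29 (0.50) or 30 (0.46).

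The p15 and p16 genes did not pass in this comparison. *Cdkn2a* was at 1.14, 2.02 and 1.16 CPM in noncystic and 1.83, 1.76 and 2.69 CPM in cystic Δ17/Δ17 kidneys (log2 0.54, 95% interval -0.08 to 1.16, adjusted p = 0.224), with noncystic mouse 23 inside the cystic range. *Cdkn2b* was at 5.07, 4.86 and 8.75 against 8.70, 8.85 and 14.3 CPM (log2 0.77, 95% interval 0.07 to 1.48, adjusted p = 0.114), and passed without noncystic mouse 24 (log2 1.10, adjusted p = 0.0480). *Cdkn2b* also passed in edgeR with library totals, in a fit of the compared groups alone (adjusted p = 0.0469) and without a filter on low counts (adjusted p = 0.000155). *Mdm2* (log2 0.15), *Cdkn1b* (0.16) and *Ccng1* (0.17) were apart between the groups and not called.

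The comparison of the cystic groups asked what went with deleting the *Pkd2* motif in diseased kidneys. None of the 10 genes was called by edgeR, DESeq2 or limma-trend, and edgeR called 2.23% of all genes. Without the filter on low counts edgeR called 1460 of 54532 genes, among them *Cdkn2b* (adjusted p = 0.00319). At an unadjusted p under 0.05 edgeR had 1 of the 10, *Cdkn2a*. This comparison shares the cystic +/+ mice with the first one. *Cdkn2a* stood at 3.14, 3.67 and 3.06 CPM in +/+ and 1.83, 1.76 and 2.69 CPM in Δ17/Δ17 kidneys, lower in every kidney (log2 -0.65, 95% interval -1.23 to -0.06, adjusted p = 0.285). *Cdkn2b*, at 12.4, 21.9 and 16.5 against 8.70, 8.85 and 14.3 CPM, overlapped between the groups (log2 -0.67, 95% interval -1.34 to 0.00, adjusted p = 0.352). *Cdkn2c* was lower in every Δ17/Δ17 kidney by a small amount (log2 -0.19, 95% interval -0.52 to 0.13, adjusted p = 0.645).

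*Cdkn2a* and *Cdkn2c*, 2 of the 10 genes, were apart with the Δ17/Δ17 kidneys lower, beside 10.2% of all genes, and 0 were apart with them higher, beside 8.79%. *Trp53* overlapped between the cystic groups (log2 -0.10, 95% interval -0.26 to 0.06, adjusted p = 0.596), as did *Cdkn1a* (log2 -0.05, 95% interval -0.37 to 0.28). The log2 differences of *Cdkn1b* (-0.03) and *Ccng1* (0.02) were the smallest. *Mdm2* was at 59.8, 51.9 and 57.1 CPM in +/+ and 59.5, 64.0 and 67.9 CPM in Δ17/Δ17 kidneys (log2 0.18, 95% interval -0.0003 to 0.36, adjusted p = 0.350). *Ccnd1* and *Ccnd2* overlapped, with log2 differences of 0.13 for *Ccnd1* (95% interval -0.13 to 0.40) and 0.16 for *Ccnd2* (-0.18 to 0.50). Without cystic mouse 25 the value of *Ccnd2* was -0.045. The 4 genes with a 7-base match to the miR-17 seed thus had log2 differences between -0.05 and 0.16 here.

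In noncystic kidneys the deletion gave the background for that comparison. None of the 10 genes was called by edgeR, DESeq2 or limma-trend, beside 0.00406% of all genes in edgeR, and 2 had an unadjusted p under 0.05. Without the filter on low counts edgeR called 110 of 54532 genes, among them *Ccnd2* (adjusted p = 0.0229). *Cdkn2a* was higher in every Δ17/Δ17 kidney, at 1.14, 2.02 and 1.16 CPM against 0.831, 1.08 and 0.661 CPM (log2 0.75, SE 0.32, adjusted p = 0.771). *Ccnd2* was lower in every one, at 29.7, 32.0 and 32.8 against 39.8, 51.0 and 36.0 CPM (log2 -0.42, SE 0.17, adjusted p = 0.771). These were the 2 genes whose groups were apart, beside 10.8% of all genes. The log2 differences of the other 8 genes ran from -0.22 (*Cdkn2b*) to 0.12 (*Mdm2*).

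The interaction asked whether the difference that went with the deletion was itself unlike in cystic and noncystic kidneys. None of the 10 genes was called by edgeR, DESeq2 or limma-trend, beside 0.0122% of all genes in edgeR, and 2 genes had an unadjusted p under 0.05. Without the filter on low counts edgeR called 466 of 54532 genes, among them *Ccnd2* (adjusted p = 0.00889). *Cdkn2a* had the largest value, -1.40 on the log2 scale (SE 0.42, adjusted p = 0.351), since the deletion went with a lower level in cystic and a higher level in noncystic kidneys. *Ccnd2* moved the other way (0.58, SE 0.23, adjusted p = 0.508). *Trp53* had an interaction of -0.10 (95% interval -0.32 to 0.13).

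**Figure D4:**
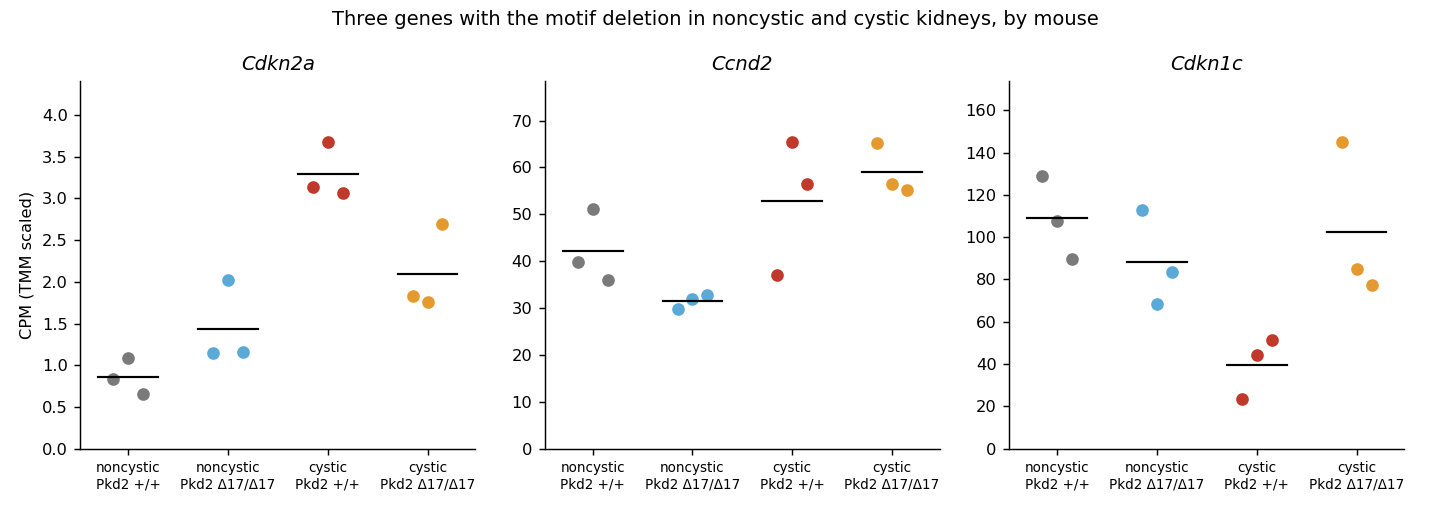
CPM of *Cdkn2a*, *Ccnd2* and *Cdkn1c* (y axis, from 0, TMM scaled) in the 4 groups, with 1 point per mouse and the mean as a black line. The genes were picked after their values were seen. *Cdkn2a* is above noncystic +/+ in every noncystic Δ17/Δ17 kidney and below cystic +/+ in every cystic Δ17/Δ17 kidney, and *Cdkn1c* is lowest in the cystic +/+ group.

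*Cdkn1c*, named above, was the CDK inhibitor gene that was called between the cystic groups. It stood at 23.5, 44.3 and 51.5 CPM in cystic +/+ and at 145, 85.0 and 77.2 CPM in cystic Δ17/Δ17 kidneys (2.58-fold, log2 1.37, SE 0.27, adjusted p = 0.0153), and every Δ17/Δ17 kidney was above every +/+ one. The call was lost without mouse 28, the highest, and in a fit of these groups alone, with the lowest log2 fold change over all settings at 1.03 and the highest adjusted p at 0.0902. Podocyte markers summed to 236 to 311 CPM in cystic Δ17/Δ17 kidneys, 0 of the 4 passing in edgeR between the cystic groups (2 at an unadjusted p under 0.05) and 1 in DESeq2. The interaction for *Cdkn1c* was 1.67 (SE 0.37, adjusted p = 0.150). Of the other genes outside the 10 that are CDK inhibitors by name, *Cdkn3* (log2 0.98, adjusted p = 0.000807) and *Cdkn2d*, the p19 INK4 gene (0.31, adjusted p = 0.0324), were higher in cystic +/+ kidneys. The *Cdkn2d* call was lost without mouse 20, 21, 25 or 26, with DESeq2's size factors, without a filter on low counts, in a fit of the compared groups alone and with *Xist* as a covariate, with log2 values of 0.23 to 0.47 over all settings.

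The partners of these genes were then counted in lists of pathway genes, beside the 16.9% of all genes called higher and 14.2% called lower in cystic +/+ kidneys. In the D cyclin, CDK and Rb axis 18 of 26 genes were higher and 1 was lower (median log2 0.51). *Ccne1*, the E cyclin that acts after the D cyclins, was 3.68-fold higher (log2 1.88, adjusted p = 2.86e-06). *Cdk4*, the partner of the D cyclins, was higher by 0.68, the E2F partner *Tfdp1* by 0.74 and the Rb relative *Rbl1* by 0.89 on the log2 scale. *E2f5* was lower (log2 -0.29), a call that was lost without mouse 19 or 27, with library totals in edgeR or limma-trend, without a filter and in a fit of the compared groups alone. Among genes of cycling cells 21 of 22 were higher and 0 lower (median log2 1.35). Those with the smallest adjusted p were the replication helicase genes *Mcm2* (1.17), *Mcm5* (1.58), *Mcm3* (1.46) and *Mcm4* (1.09).

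Of 36 p53 target genes outside the 10, 21 were higher and 3 lower (median log2 0.45). The cell death genes *Pmaip1* (Noxa, log2 2.54, adjusted p = 5.57e-08) and *Bbc3* (Puma, 1.38, adjusted p = 4.10e-06), the stress cytokine gene *Gdf15* (2.74, adjusted p = 1.48e-06) and *Psrc1*, a gene of the mitotic spindle (2.70, adjusted p = 2.38e-06), had the smallest adjusted p among those higher. These are 5.81-, 2.59-, 6.70- and 6.48-fold differences, picked by adjusted p from the 36, of which 12 were not called. The targets among the 10 stood at 1.40-fold (*Cdkn1a*), 1.14-fold (*Ccng1*) and 1.06-fold (*Mdm2*). *Dcxr*, which acts in xylulose metabolism, was lower (log2 -1.37), as were the adenylate kinase gene *Ak1* (-0.75) and the death receptor gene *Fas* (-0.41). The *Fas* call was lost without mouse 19, 20, 25, 26 or 27, with library totals in edgeR or limma-trend, without a filter, in a fit of the compared groups alone and with *Xist* as a covariate, with log2 values of -0.50 to -0.24 over all settings. Of 20 regulators and relatives of p53, 6 were higher and 1 lower (median log2 0.09). The checkpoint kinase genes *Chek1* (log2 1.38), *Chek2* (0.94) and *Atm* (0.73) and the damage adaptor gene *Trp53bp1* (0.66) were higher. The ubiquitin ligase gene *Rchy1* was lower (-0.23), a call lost without mouse 19, 20, 25 or 26 and with the same other settings as *Fas*, with log2 values of -0.29 to -0.08 over all settings.

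Of 21 regulators of the CDK inhibitors 7 were higher and 2 lower (median log2 0.21). The Polycomb genes *Ezh2* (log2 0.98) and *Cbx2* (0.81), whose complexes are known to silence *Cdkn2a*, were higher in the kidneys in which *Cdkn2a* was higher. *Cks1b* (1.12), a cofactor for the degradation of p27, and *Klf6* (0.97) were also higher. *Foxo1* (-0.52) and *Foxo3* (-0.46), known activators of *Cdkn1b*, were lower. In a list of genes often followed with p16 and p21 in senescent cells, 12 of 21 were higher and 4 lower (median log2 1.26). The higher ones included *Timp1* (3.45), *Ccl2* (3.10) and *Icam1* (1.55), and also *Lmnb1* (1.51), whose level is known to be low in senescent cells. *Glb1*, the gene of the β-galactosidase that is stained in senescent cells, was lower (-0.69), as were *Igfbp3* (-0.88), *Igfbp5* (-1.38) and *Igfbp7* (-0.42). The *Igfbp7* call was lost without mouse 25 and with library totals, with log2 values of -0.53 to -0.26.

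**Figure D5:**
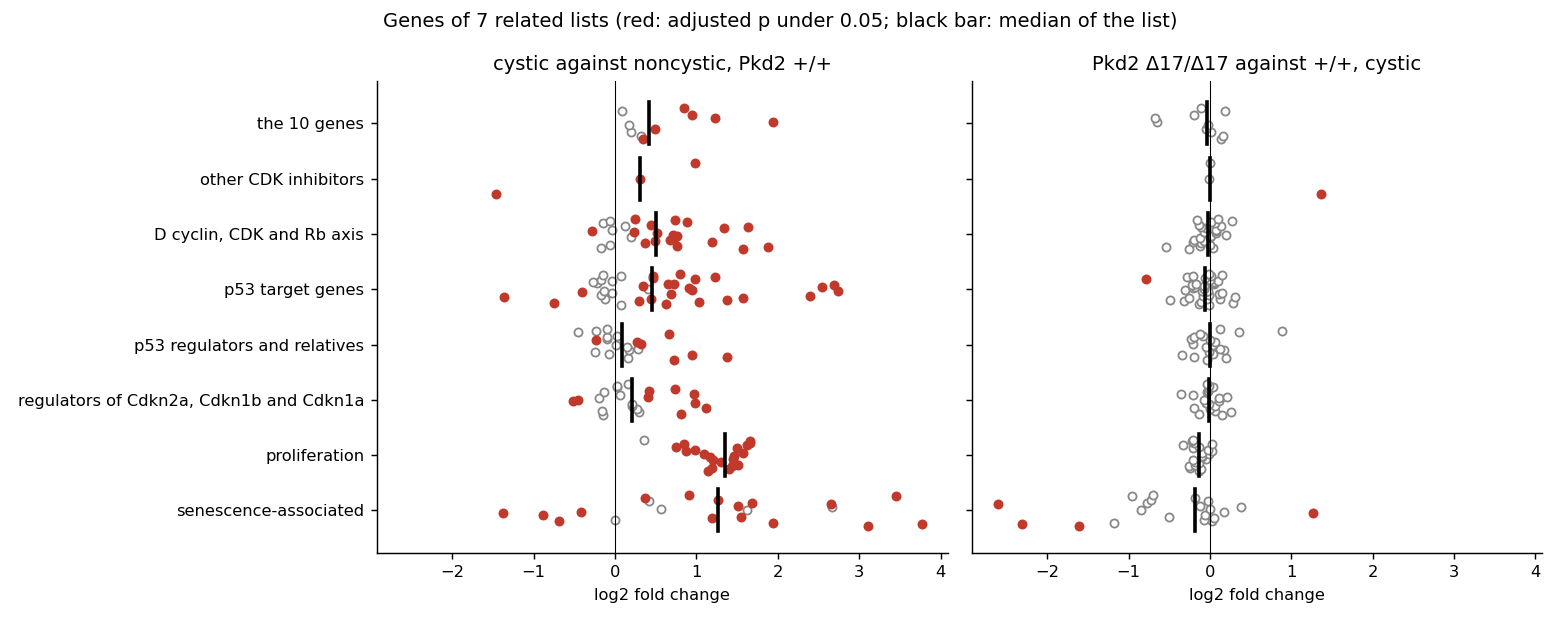
Log2 fold changes of the 10 genes and of the genes of 7 lists (1 point per gene), for cystic against noncystic +/+ kidneys (left) and for Δ17/Δ17 against +/+ in cystic kidneys (right). Red points have an adjusted p under 0.05 and the black bar is the median. On the left the medians run from 0.09 (p53 regulators) to 1.35 (proliferation), and on the right from -0.18 (senescence-associated) to 0.00.

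Between the cystic groups the lists were read beside the 2.23% of all genes that edgeR called (549 of 24642). DESeq2 called more of all genes, 1128, and limma-trend 564. edgeR, DESeq2 and limma-trend called 0 of 22 proliferation genes (0 at an unadjusted p under 0.05), 0 of 26 genes of the D cyclin axis (3 unadjusted) and 0 of 20 p53 regulators (3 unadjusted). Of the 21 regulators of the CDK inhibitors edgeR and limma-trend called 0 and DESeq2 1 (1 unadjusted in edgeR). Of the 36 p53 targets, *Tap1*, an antigen peptide transporter gene, was lower (log2 -0.78, adjusted p = 0.0380), a call lost without any one of mice 21, 23, 24, 26, 27, 28 or 29, with limma-trend, in a fit of the cystic groups alone and with *Xist* as a covariate, with log2 values of -1.01 to -0.46 over all settings. In the senescence-associated list edgeR called 3 of 21 genes lower and 1 higher (9 at an unadjusted p under 0.05) and DESeq2 called 5 lower and 1 higher. Without each mouse in turn, edgeR called 0 to 6 of them lower and 0 to 1 higher. *Mmp12* (log2 -2.61, adjusted p = 0.00907), *Ccl8* (-2.31, adjusted p = 0.0402) and *Ccl2* (-1.61, adjusted p = 0.0211), a metalloproteinase gene of macrophages and 2 chemokine genes, were lower with the deletion, and *Igfbp5* was higher (1.27, adjusted p = 0.00846). These calls were lost without mouse 28 or 29 for *Mmp12*, without 21, 24, 26, 27, 28 or 29 for *Ccl8*, without 26, 28 or 29 for *Ccl2* and without 27 for *Igfbp5*. In a fit of the cystic groups alone the calls of *Mmp12*, *Ccl8* and *Ccl2* were also lost. Over all settings the log2 values were -3.40 to -2.03, -2.82 to -1.89, -1.81 to -1.12 and 1.01 to 1.62.

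Cell type markers moved with the same groups. All 5 macrophage markers were higher in cystic +/+ kidneys, their summed level rising from 97.6 to 104 CPM in noncystic to 223 to 292 CPM in cystic +/+ kidneys, and it was 176 to 212 CPM in cystic Δ17/Δ17 kidneys. 4 of 5 fibroblast and mural markers were higher (1747 to 1904 against 2860 to 4499 CPM). All 4 proximal tubule markers were lower (5586 to 7098 against 1935 to 2970 CPM), as were both distal convoluted tubule markers (1001 to 1470 against 236 to 522 CPM), 2 of 4 endothelial and 3 of 3 red blood cell markers. Both fat markers were called lower by edgeR (54.8 to 144 against 13.8 to 33.8 CPM), 0 by DESeq2 or limma-trend, and 0 to 2 without each mouse in turn. The 6 collecting duct markers were split, 2 higher and 2 lower, and of the 3 thick ascending limb markers 1 was higher and 1 lower (2372 to 2839 against 1410 to 2086 CPM). Between the cystic groups the thick ascending limb markers summed to 2898 to 2951 CPM in Δ17/Δ17 kidneys, above every +/+ kidney, and the salt transporter gene *Slc12a1* was called higher (log2 0.93, adjusted p = 0.000704). With the deletion in cystic kidneys edgeR also called 2 of 5 macrophage markers lower and 1 of 4 proximal tubule markers higher. Without each mouse in turn these counts ran from 0 to 3 and from 0 to 1. The 3 lymphocyte markers summed to at most 4.74 CPM in any mouse. The part of these cell types in the values of the 10 genes was not tested.

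For the genes called in the first comparison whose mean log2CPM was 1 or more, the genes with the most similar course over the 12 mice were sought among 13690 genes, by the root mean square difference of mean-centred log2CPM. *Cdkn2c* was nearest to *Mad2l1*, a mitotic checkpoint gene (0.08), and *Stmn1*, a microtubule regulator gene (0.09), against its own root mean square deviation of 0.51. *Trp53* was nearest to *Plscr3* (0.07) and *Sept8* (0.07, own deviation 0.40), and *Cdkn1a* to *Xrcc2*, a recombination repair gene (0.14), and *Fntb* (0.14, own deviation 0.32). The nearest to *Ccnd1* were *Atp8b2* (0.11) and *Lancl2* (0.11, own deviation 0.29). The nearest to *Cdkn2b* were *Akr1b8* (0.25) and *Rtn4rl2* (0.25, own deviation 0.72).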

How the data were processed

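Whole-kidney RNA-seq of 12 mice was used. The authors trimmed reads with Trim Galore (0.6.3), aligned them to GRCm38 with STAR (2.5.3a) against Ensembl gene models and deposited raw counts per gene with no normalization. The strand setting is not given in the sources used here. Counts were analysed with edgeR's quasi-likelihood test (4.0.16), TMM scaling and a mean for each of the 4 groups in 1 fit of the 12 mice (8 residual degrees of freedom). Genes entered at a mean log2CPM of -3 or more (prior count 2), with Benjamini-Hochberg adjustment. The SE is the log2 fold change over the square root of its F statistic. The study's methods name limma-trend (3.58.1 here, prior count 3), which was run as an alternative because counts were deposited. DESeq2 (1.42.0) and the other alternatives are listed with their effect at the end. Replicates of a group differed by more than counting error (chi-square per degree of freedom 8.88 to 24.3).

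Totals of 18800307 to 24453033 reads gave a median SE of 0.11 for genes at a mean log2CPM of 1 or more. Of the gene identifiers, 54495 (99.93%) were in GENCODE M21, which gave positions and lengths (union of exons). 343 unnamed genes held 0.0225% of the reads. The 10 genes, the lists and the tests were chosen with earlier results of these data known. All 10 genes are named, and from each list the up to 4 genes with the smallest adjusted p in each direction in cystic against noncystic +/+ kidneys, and every gene called between the cystic groups.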

Additional observations from a re-analysis of the deposited data

Results flagged for a closer look

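The *Cdkn2a* difference that went with the *Pkd2* motif deletion had opposite signs in the 2 settings. Every Δ17/Δ17 kidney was below every +/+ kidney among the cystic mice (log2 -0.65) and above every +/+ kidney among the noncystic mice (log2 0.75). The difference between these values was -1.40 on the log2 scale (SE 0.42), and the test of the difference itself did not pass (adjusted p = 0.351, edgeR with Benjamini-Hochberg adjustment over 24642 genes). The adjusted p ran from 0.175 to 0.695 over the alternatives, and the value from -1.62 to -1.07 without each mouse in turn. The gene had 13 to 81 reads per library.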

How the results depend on the processing

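No paired analysis was possible because the groups share no replicate number. Leaving out each mouse in turn gave 4 to 8 genes called between cystic and noncystic +/+ kidneys, 4 to 5 with the deletion, and 0 to 0 in the other comparisons and the interaction. limma-trend with library totals and edgeR with library totals each gave 10 in the first and 9 in the second of these, where *Cdkn2a* was the gene not called. Of all 24642 genes they called 8829 and 8719 in the first and 7134 and 6991 in the second. With TMM factors edgeR called 7665 and 5679. Without a filter on low counts, 1 gene was called for the deletion in cystic kidneys (*Cdkn2b*, adjusted p = 0.00319), 1 for the deletion in noncystic kidneys (*Ccnd2*, 0.0229) and 1 in the interaction (*Ccnd2*, 0.00889), in a test over 54532 genes. That setting called 1460, 110 and 466 of all genes there, beside 549, 1 and 3 with the filter. DESeq2's Wald test, DESeq2's size factors, a minimum of 10 counts in every mouse, filterByExpr, fits of the compared groups alone and *Xist* as a covariate moved none of these counts by over 1.5 times. No value of the 10 genes between cystic and noncystic kidneys changed sign under the settings run. Signs changed only for log2 differences given above between -0.22 and 0.16. *Trp53* with the deletion in noncystic kidneys was 0.0025 with limma-trend, 0.00598 with library totals and 0.013 with *Xist*, and the interaction of *Cdkn1a* was 0.025 with limma-trend and 0.052 with *Xist*, that of *Cdkn2c* 0.073 and that of *Ccng1* 0.012 with *Xist*. Without each mouse in turn, the deletion in cystic kidneys ran from -0.22 to 0.048 for *Cdkn1a*, -0.053 to 0.019 for *Cdkn1b*, -0.040 to 0.050 for *Ccng1* and -0.045 to 0.34 for *Ccnd2*. In noncystic kidneys it ran from -0.23 to 0.10 for *Cdkn1a*, -0.038 to 0.00023 for *Cdkn1b*, -0.54 to 0.26 for *Cdkn2b*, -0.35 to 0.048 for *Cdkn2c*, -0.047 to 0.034 for *Trp53* and -0.0054 to 0.085 for *Ccng1*. The interaction ran from -0.19 to 0.18 for *Cdkn1a*, -0.034 to 0.037 for *Cdkn1b*, -0.24 to 0.16 for *Cdkn2c*, -0.0067 to 0.13 for *Mdm2* and -0.082 to 0.021 for *Ccng1*. The cause of these changes was not tested. With library totals 13 rather than 7 of the 21 regulators of the CDK inhibitors and 9 rather than 6 of the 20 p53 regulators were called higher. This was in cystic +/+ kidneys, where edgeR with library totals called 8719 rather than 7665 of all genes. Between the cystic groups DESeq2 called 3 of the p53 targets lower where edgeR called 1, beside 1128 and 549 of all genes called. Per kb of the longest transcript in place of all exons, *Cdkn1a* stood at 27.3, *Cdkn2a* at 0.959, *Trp53* at 13.7, *Mdm2* at 16.8, *Ccnd1* at 40.8 and *Ccnd2* at 6.68 CPM per kb in noncystic +/+ kidneys, so that *Cdkn1a* then stood above *Cdkn1b* and *Mdm2* above *Trp53*. With 3 mice a group, log2 differences of *Cdkn2b* had an SE of 0.32 to 0.34, and those of *Cdkn2a* 0.28 to 0.32.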
